A study of Mus musculus with 3 samples.

Results

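The chains of the IgE and IgG Fc receptors were measured in SCF-stimulated mast cell progenitors (MCps) from WT and *p85α−/−* mice. The members are 6 genes, *Fcer1a*, *Ms4a2*, *Fcer1g*, *Fcgr1*, *Fcgr2b* and *Fcgr3*, out of 27962 gene names on an Agilent whole-mouse genome oligo array. They were taken by gene name, ignoring case, which gave 11 of the 41174 probes, and all 11 were tested. *Fcer1a* and *Ms4a2* have 1 probe each, *Fcer1g*, *Fcgr1* and *Fcgr3* have 2, and *Fcgr2b* has 3. MCps are immature mast cells, here grown from low density mononuclear cells of 3 WT and 3 *p85α−/−* mice over 7 days with 10 ng/mL of IL-3. Cells positive for both KIT and the IgE receptor were then sorted and received 100 ng/mL of SCF, which binds KIT, during 48 hours. *p85α−/−* mice lack p85α, a regulatory subunit of PI3K that is encoded by *Pik3r1*, and the sources used here name no promoter or Cre that would limit the loss to mast cells. Neither age nor strain of the mice that gave these cells was stated in the sources used here. Each of 3 arrays carried cDNA of 1 WT culture in Cy3 and of 1 *p85α−/−* culture in Cy5. Dyes were never swapped, so that dye and genotype cannot be told apart in any ratio below. Because few cells were sorted, the cDNA was amplified by PCR before labeling.

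A mast cell binds IgE through a receptor made of an α chain (FcεRIα, from *Fcer1a*) that holds the antibody, a β chain (from *Ms4a2*) that spans the membrane several times and strengthens the signal, and a pair of γ chains (FcRγ, from *Fcer1g*). The β and γ chains carry an immunoreceptor tyrosine-based activation motif (ITAM), which recruits the kinases LYN and SYK once antigen cross-links the bound IgE. FcRγ is also the signaling partner of the activating IgG receptors FcγRI (*Fcgr1*) and FcγRIII (*Fcgr3*). FcγRIIB (*Fcgr2b*) carries an inhibitory motif instead and recruits the lipid phosphatase SHIP1, which removes the product of PI3K. The α and β chains mark mast cells and basophils, whereas FcRγ and the IgG receptors are also found on other myeloid cells, and FcRγ and FcγRIII on NK cells. The sort selected cells with IgE receptor protein on the surface in both genotypes. The RNA values below are those after 48 hours of SCF.

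The stretches of 250 bases before the transcription starts of the IgE receptor chains are shown because GATA factors are known regulators of mast cell genes, and because these 3 genes make 1 receptor. They are RefSeq sequences of GRCm38.p6, printed 5′ to 3′ on the minus strand, which is the strand of each gene. Capitals mark AGATAA or TGATAA on either strand, TTATCT and TTATCA being the reverse complements.
Fcer1a, chr1:173227230-173227479: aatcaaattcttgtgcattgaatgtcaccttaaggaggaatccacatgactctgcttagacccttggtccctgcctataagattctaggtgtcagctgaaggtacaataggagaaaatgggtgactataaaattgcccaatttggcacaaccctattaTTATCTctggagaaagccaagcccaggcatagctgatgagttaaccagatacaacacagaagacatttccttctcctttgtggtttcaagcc
Ms4a2, chr19:11623720-11623969: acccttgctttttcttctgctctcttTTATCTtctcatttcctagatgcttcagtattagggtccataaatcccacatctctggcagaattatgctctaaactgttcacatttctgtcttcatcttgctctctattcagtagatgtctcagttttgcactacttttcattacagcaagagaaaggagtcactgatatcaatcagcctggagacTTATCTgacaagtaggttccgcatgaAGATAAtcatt
Fcer1g, chr1:171234350-171234599: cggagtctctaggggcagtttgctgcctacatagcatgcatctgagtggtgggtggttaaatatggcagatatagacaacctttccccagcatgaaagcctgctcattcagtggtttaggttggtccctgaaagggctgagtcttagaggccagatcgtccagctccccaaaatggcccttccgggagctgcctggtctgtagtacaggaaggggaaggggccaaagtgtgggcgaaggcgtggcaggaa
The *Fcer1a* stretch holds the motif 1 time, 92 bases before the start. The *Ms4a2* stretch holds it 3 times, at 224, 37 and 11 bases before the start. The *Fcer1g* stretch and those of *Fcgr1*, *Fcgr2b* and *Fcgr3* do not hold these letters. All 6 members matched the table, with 7 windows because *Fcgr3* has 2 starts, and 2 of the 7 held the motif. Of all 32851 windows of 250 bases in the table, 5452 (16.6%) held it. A match to these letters is a description of the sequence and was not tested as a binding site.

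Levels are given below as log2 intensities after background correction and quantile normalization of the 6 channels, and a log2 ratio is the *p85α−/−* value minus the WT value on the same array, so that 1 unit is a doubling. These are levels of a probe and cannot be set against those of another probe. Where a gene has several probes, the one with the highest mean log2 intensity is given first. A call means a ratio of at least 1.5-fold in either direction with an unadjusted p under 0.05, the criteria named in the study's methods, here with limma's moderated test against 0. No probe reached an adjusted p under 0.05 (limma with Benjamini-Hochberg adjustment over 41157 probes, lowest adjusted p = 0.763), which is 0% of those tested, while 1829 had an unadjusted p under 0.05. All 1829 were also past 1.5-fold (4.44%), with 1145 higher (2.78%) and 684 lower (1.66%) in *p85α−/−* MCps. The balance rested on replicate 2, without which 3165 probes were called, 47.5% of them higher and 52.5% lower. It also rested on the scaling. With median centring in place of quantile normalization 2692 probes were called, 91.1% of them higher and 8.88% lower. Of all probes, 12.5% were above 0 on all 3 arrays and 13.3% below 0 on all 3. Every *p85α−/−* culture lay above every WT culture at 4.54% of probes and below at 5.94%. The median log2 ratio of all probes was −0.05, and the median SD over arrays was 0.67.

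The median spot signal was 71.5 to 141.2 in the WT channel and 206.6 to 517.3 in the *p85α−/−* channel, with 69.4% to 85.3% and 77.3% to 93.8% of spots well above background. The *p85α−/−* channel of replicate 2 stood apart at 517.3 and 93.8%. Those of replicates 1 and 3 were at 210.9 and 206.6, with 77.6% and 77.3%. On replicate 3 the WT channel had the larger share, 85.3%. *Pik3r1*, the targeted gene, had log2 ratios of 1.48, −0.03 and 0.33 on replicates 1, 2 and 3 at its brightest probe (0.59 ± 0.79, SD, n = 3). The mean was 0.15 without replicate 1 and 0.91 without replicate 2. With median centring in place of quantile normalization it was 1.34, and it was 0.075 when all probes of *Pik3r1* were averaged. *Pik3r1* also codes for shorter regulatory subunits, and the part of it that was deleted, or whether this probe lies there, is not given in the sources used here. *Kit*, whose protein was the other sort marker, had log2 ratios of 1.45, 2.19 and 2.54. Its mean of 2.06 ± 0.56 was past both criteria. The levels of 10 mast cell marker genes were also read, all well above background in every culture. Of these, 9 had a mean ratio above 0 (44.8% of all probes) and 2 were called higher (2.78% of all probes), *Kit* and the chymase gene *Cma1*. The summed level of the 10 was 28700 to 65700 in WT and 91900 to 164000 in *p85α−/−* MCps. Being well above background does not set mast cells apart here, since all 4 T cell and all 5 B cell markers were so in every culture too.

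*Fcer1g* was the member that differed in the same direction in all 3 pairs by more than its spread. The log2 intensity of its brightest probe was 11.27, 13.34 and 12.67 in WT replicates 1, 2 and 3, and 13.97, 14.65 and 13.93 in the *p85α−/−* replicates. Every *p85α−/−* culture lay above every WT culture, and WT replicate 1 was the lowest of the 6. The log2 ratios were 2.71, 1.31 and 1.26, a mean of 1.76 ± 0.82 (SD, n = 3; 95% confidence interval 0.57 to 2.95) or 3.39-fold. This was past both criteria (unadjusted p = 0.0153 by limma), and 2.69% of all probes had a higher mean ratio. The adjusted p was 0.908 (limma). Before normalization the spot signals were 863, 6160 and 3100 in the WT channel and 51000, 43900 and 37500 in the *p85α−/−* channel, with no saturated spot. *Fcer1g* stayed past both criteria when any 1 array was left out, with a mean log2 ratio between 1.29 and 2.01. With the test that the study's methods name, unpaired or paired, it did not pass them.

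The other *Fcer1g* probe starts 52 bases away and overlaps the end of the first. Its log2 intensity was 9.74, 12.80 and 12.10 in WT and 13.20, 14.27 and 12.83 in *p85α−/−* MCps. Here too the genotypes did not overlap, with *p85α−/−* replicate 3 just above WT replicate 2. The log2 ratios of 3.46, 1.47 and 0.73 gave 1.89 ± 1.41 (SD, n = 3), or 3.70-fold. This probe was past both criteria by a small margin (unadjusted p = 0.0456 by limma) and no longer was so without replicate 1 (log2 ratio 1.101, unadjusted p = 0.0838 by limma) or without replicate 2 (log2 ratio 2.09, unadjusted p = 0.125 by limma).

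*Fcer1a*, the chain that binds IgE, did not differ in a common direction. Its only probe had log2 intensities of 11.73, 9.15 and 9.03 in WT replicates 1, 2 and 3, and of 8.73, 12.48 and 10.42 in the *p85α−/−* replicates. WT replicate 1 was the highest WT culture and its partner on the array the lowest *p85α−/−* culture, so that the ranges of the genotypes overlapped widely. The log2 ratios were −2.99, 3.32 and 1.39. Their mean of 0.57 ± 3.24 (SD, n = 3; 95% confidence interval −3.39 to 4.54) was not distinguishable from 0 (adjusted p = 0.963 by limma). The SD over arrays was larger than that of 98.8% of all probes. WT cultures differed among themselves by up to 2.70 log2 units and *p85α−/−* cultures by up to 3.74. Replicate 2 decided the direction of the mean, which was −0.80 without it, and the mean was 2.36 and past both criteria without replicate 1.

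*Ms4a2*, the β chain, was at or near background in WT MCps. Its log2 intensity was 6.99, 6.79 and 6.72 in WT and 7.78, 10.14 and 6.97 in *p85α−/−* MCps. The spot was well above background in 1 of 3 WT cultures and in 3 of 3 *p85α−/−* cultures. Before normalization the WT signals of 41.7, 44.1 and 44.1 lay close to local backgrounds of 32.5, 38.5 and 32, while the *p85α−/−* signals were 212, 2330 and 82.3. *p85α−/−* replicate 2 stood far above the other 5 cultures, and *p85α−/−* replicate 3 lay just below WT replicate 1, so the genotypes overlapped. The log2 ratios were 0.79, 3.35 and 0.25, above 0 on all 3 arrays. The mean of 1.47 ± 1.66 (SD, n = 3; 95% confidence interval −0.64 to 3.57) was not past the criteria (unadjusted p = 0.122, adjusted p = 0.908 by limma), and without replicate 2 it was 0.52. With the scanner software's own background subtraction and dye correction, followed by quantile normalization, the mean was 2.98 and past both criteria.

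**Figure D1:**
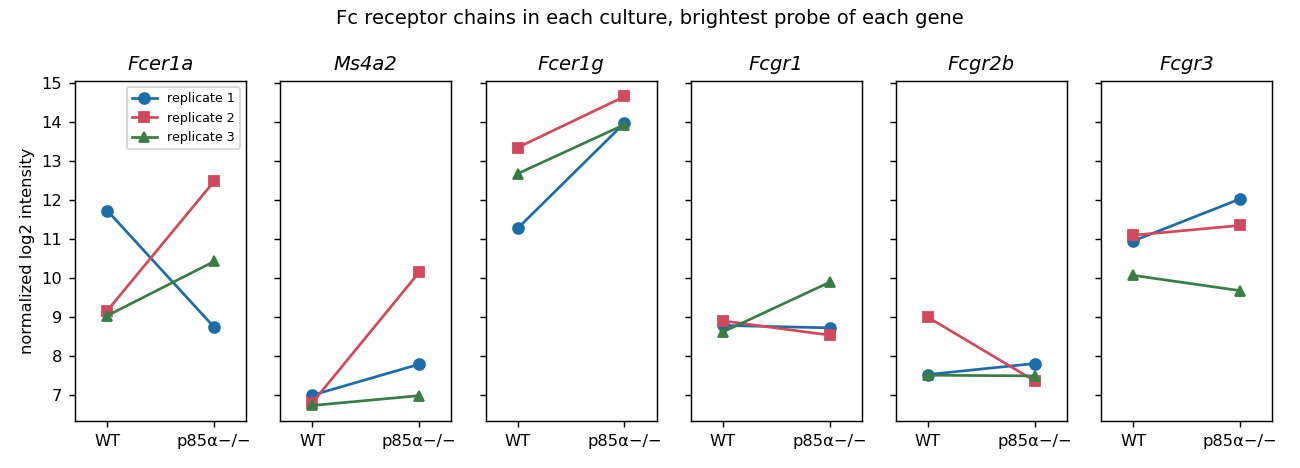
Normalized log2 intensity (y axis) of the brightest probe of each Fc receptor gene in WT and *p85α−/−* MCps. Each line joins the 2 cultures hybridized to 1 array, with 1 color and symbol per replicate, and panels are not to be compared with each other since each is a different probe. The *Fcer1g* lines slope up on every array, the *Fcer1a* line slopes down on replicate 1 and up on the other two, and the *Ms4a2* line is steepest on replicate 2.

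The log2 ratios of the IgE receptor chains were also compared with each other on each array. The log2 ratio of *Fcer1a* minus that of *Fcer1g* was −5.70, 2.01 and 0.13 on replicates 1, 2 and 3. For *Fcer1a* minus *Ms4a2* the differences were −3.79, −0.03 and 1.14, and for *Ms4a2* minus *Fcer1g* they were −1.91, 2.04 and −1.01. Each of the 3 differences changed sign between arrays. Those with *Ms4a2* are limited by its WT spot, which was not well above background on replicates 1 and 2. No test of these differences was run.

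Of the activating IgG receptors, *Fcgr1* (FcγRI, the receptor of high affinity for IgG) showed no difference beyond the spread. Its brightest probe had log2 intensities of 8.78, 8.89 and 8.61 in WT and of 8.71, 8.53 and 9.89 in *p85α−/−* MCps. *p85α−/−* replicate 3 was the highest culture and the other 5 lay close together. The log2 ratios of −0.06, −0.37 and 1.28 gave 0.28 ± 0.88 (SD, n = 3; 95% confidence interval −0.96 to 1.53; adjusted p = 0.935 by limma). Replicate 3 decided the sign, since the mean was −0.22 without it. The other probe, 1566 bases away, had log2 ratios with the same signs, −0.09, −0.39 and 0.41, and a mean of −0.02 ± 0.40 (SD, n = 3).

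The probes of *Fcgr3* (FcγRIII, an activating IgG receptor of lower affinity) differed from each other. The brightest probe had log2 intensities of 10.94, 11.09 and 10.06 in WT and of 12.02, 11.34 and 9.67 in *p85α−/−* MCps. The genotypes overlapped, with both the highest and the lowest culture in *p85α−/−*. Its log2 ratios of 1.08, 0.25 and −0.39 gave 0.31 ± 0.74 (SD, n = 3; 95% confidence interval −0.79 to 1.42; adjusted p = 0.922 by limma). Without replicate 1 the mean was −0.07. At the other probe, 2482 bases away, the log2 intensities were 7.82, 8.60 and 7.59 in WT and 9.89, 10.48 and 7.70 in *p85α−/−* MCps. There *p85α−/−* replicates 1 and 2 lay above all WT cultures and replicate 3 lay among them. The log2 ratios of 2.08, 1.87 and 0.11 were above 0 on all 3 arrays, with a mean of 1.35 ± 1.08 (SD, n = 3; 95% confidence interval −0.11 to 2.82) that was not past the criteria (unadjusted p = 0.0614 by limma). It was past them without replicate 3 (1.98) and with median centring in place of quantile normalization (1.63). On every array the brightest probe gave the lower ratio, by 0.50 to 1.62 log2 units.

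**Figure D2:**
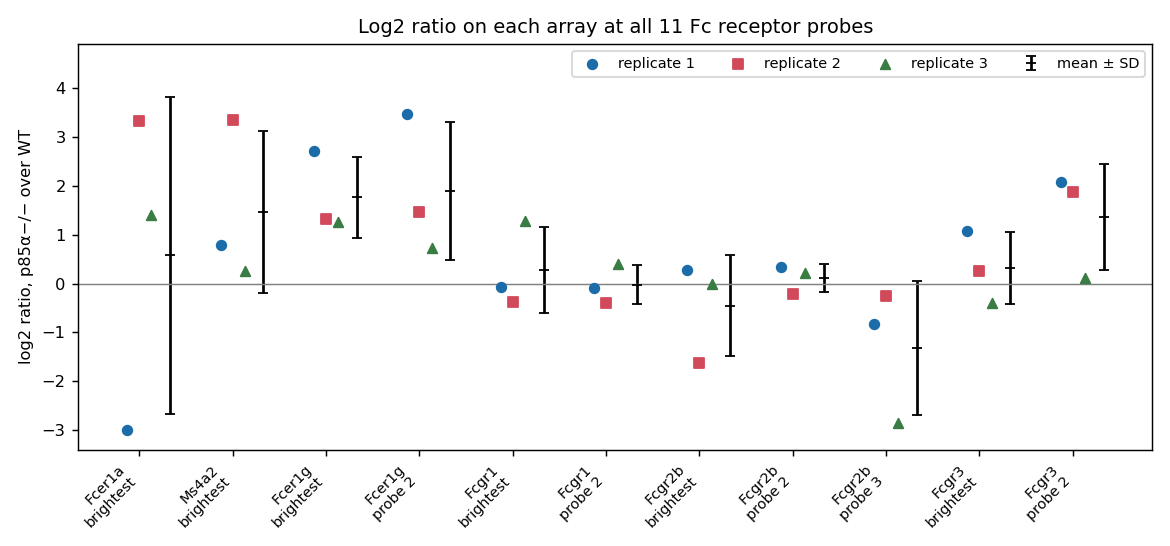
Log2 ratio of *p85α−/−* over WT (y axis) at each of the 11 Fc receptor probes (x axis), with 1 symbol per array and, beside it, the mean and its SD over the 3 arrays as a bar. Both *Fcer1g* probes lie above 0 on every array, the *Fcer1a* points span from −2.99 to 3.32, and the probes of *Fcgr3* and of *Fcgr2b* differ from each other.

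*Fcgr2b*, the inhibitory IgG receptor, was the member whose brightest probe had a mean log2 ratio below 0. This probe is printed at 10 spots on each array. Its log2 intensity was 7.52, 8.99 and 7.50 in WT and 7.80, 7.35 and 7.48 in *p85α−/−* MCps. WT replicate 2 stood above the other 5 cultures, which lay within a narrow range. The log2 ratios of 0.28, −1.63 and −0.02 gave −0.46 ± 1.03 (SD, n = 3; 95% confidence interval −1.86 to 0.95; adjusted p = 0.911 by limma), and the mean was 0.13 without replicate 2.

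The 10 spots of this probe show how far apart repeated measurements of the same cDNA lie. Over the 10 spots the log2 ratio ranged from 0.21 to 0.35 on replicate 1, from −1.75 to −1.52 on replicate 2 and from −0.16 to 0.11 on replicate 3. The SD over spots was 0.048, 0.076 and 0.073. The SD of 1.03 between arrays was thus far larger than the SD between spots of an array. The spots share amplification, labeling and hybridization, so that their spread covers none of these steps.

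**Figure D3:**
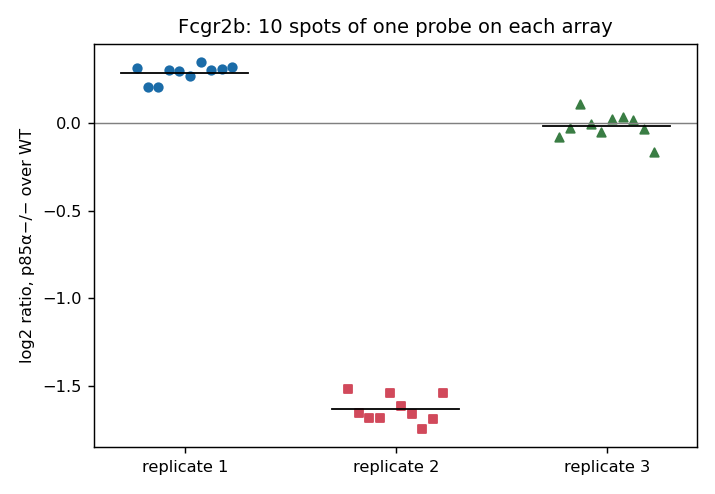
Log2 ratio of *p85α−/−* over WT (y axis) at the 10 spots of the brightest *Fcgr2b* probe on each array (x axis), with 1 point per spot and a line at their mean. The spots of an array lie together (SD 0.048 to 0.076), and replicate 2 lies apart from the other two arrays.

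The other *Fcgr2b* probes did not follow the first. One starts 139 bases away and had log2 ratios of 0.33, −0.21 and 0.21 (0.11 ± 0.28, SD, n = 3), so that replicate 2 was again the lowest but by a much smaller amount. The third starts 4845 bases away and had log2 intensities of 7.47, 6.93 and 9.74 in WT and of 6.64, 6.68 and 6.88 in *p85α−/−* MCps. It was well above background in 2 of 3 WT and 2 of 3 *p85α−/−* cultures. Its log2 ratios of −0.83, −0.25 and −2.86 were below 0 on all 3 arrays, with a mean of −1.31 ± 1.37 (SD, n = 3; 95% confidence interval −3.09 to 0.47; adjusted p = 0.908 by limma). WT replicate 3 stood out at this probe, whereas WT replicate 2 stood out at the first. Without replicate 3 the mean of the third probe was −0.54. With the scanner software's own background subtraction and dye correction, followed by quantile normalization, it was −3.09.

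The array's annotation gives probe positions without a genome build and does not say whether a probe lies in an exon or an untranslated region. It places the *Fcer1a* probe at 173194818 to 173194877 and the *Fcer1g* probes at 171199756 to 171199815 and 171199808 to 171199880, all on chromosome 1. The *Ms4a2* probe is placed at 11297411 to 11297470 on chromosome 19. *Fcgr2b* and *Fcgr3* lie near each other on chromosome 1, with their brightest probes at 170937333 to 170937392 and 171030474 to 171030533. *Fcgr1* is on chromosome 3, at 96156859 to 96156905 for its brightest probe. *Fcgr2b* and *Fcgr3* code for very similar extracellular domains, and the probe sequences, which would show whether a probe can bind the other transcript, were not used here.

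With median centring in place of quantile normalization, the mean log2 ratio was 2.97 for *Fcer1g*, again past the criteria, and 1.27 for *Fcer1a*, 0.94 for *Fcgr1* and 1.19 for *Fcgr3*, which were not past them.

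Counted over the 6 genes at their brightest probes, 5 had a mean log2 ratio above 0, beside 44.8% of all probes. *Fcer1g* and *Ms4a2* were above 0 on all 3 arrays (2 of 6, beside 12.5% of all probes). *Fcer1g* was called, as higher (1 of 6, beside 2.78%), and no other member was with all 3 arrays and quantile-normalized scanner signals. *Ms4a2* was called too with the software's processed signals or its log ratio, and *Fcer1a* without replicate 1. In the other 5 genes the SD over arrays was larger than the size of the mean and the 95% confidence interval included 0. The median over the 6 genes was 0.44, beside −0.05 over all probes, and it was 0.54, 0.78 and 0.76 on replicates 1, 2 and 3. Over the 11 probes, both *Fcer1g* probes were called (2 of 11), the same 2 had no overlap between genotypes (beside 4.54% of all probes), 4 were above 0 on all 3 arrays and 1 was below 0 on all 3 (beside 13.3%). Probes of 1 gene are not independent of each other, and the members were few, so that no test over them is given. In 4 of the 6 genes the *p85α−/−* cultures differed more among themselves than the WT cultures. The share of all probes that did so was not counted, so this is not read as a trait of the members.

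*Fcer1g* was then set against the IgG receptor genes on the same array. Its log2 ratio was above that of *Fcgr2b* by 2.42, 2.95 and 1.28 and above the brightest *Fcgr3* probe by 1.63, 1.06 and 1.65. Against the other *Fcgr3* probe the differences were 0.63, −0.56 and 1.15, so the order depended on the probe of *Fcgr3*. Against *Fcgr1* they were 2.77, 1.68 and −0.02. *Fcer1g* codes for a chain that several receptors share, and *Fcgr1* and *Fcgr3* are the genes for its IgG-binding partners.

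Genes with the profile most like that of the IgE receptor were searched among 22736 probes well above background in all 6 channels, by the root mean square distance from the mean profile of *Fcer1a*, *Ms4a2* and *Fcer1g*, each profile being 6 log2 intensities centred on their own mean. The mean profile was −0.38, −0.61 and −0.90 in WT and −0.21, 2.05 and 0.07 in *p85α−/−* MCps, and so was led by *p85α−/−* replicate 2. *Ms4a2* enters it with WT values near background, whereas the candidates had to be well above it. The closest were *Zwint*, a kinetochore protein gene (distance 0.152 log2 units), *Avil*, which codes for the actin regulator advillin (0.180), *D5Ertd579e* (0.188), *2310065K24Rik* (0.200) and *Pabpc2* (0.224), beside a median distance of 1.15 over the candidates. The chains themselves lay farther from their own mean, at 0.40 for *Ms4a2*, 0.90 for *Fcer1g* and 0.96 for *Fcer1a*. *Zwint* had log2 ratios of 0.35, 2.25 and 0.82 and was not called.

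The genes that signal below the IgE receptor spread to both sides of 0. The list of 24 kinases, adaptors and enzymes had 8 genes with a mean log2 ratio above 0, beside 44.8% of all probes, and 2 called higher and 0 called lower (beside 2.78% and 1.66%), with the lowest adjusted p at 0.763 by limma. Its median was −0.11 and its range −1.73 to 2.95. The median turned to 0.38 with median centring, with 17 genes above 0, and to 0.13 without replicate 1. Without replicate 2 it was −0.48. *Btk*, the kinase that activates phospholipase Cγ, was called higher, with log2 ratios of 2.72, 3.84 and 2.31 (2.95 ± 0.79, SD, n = 3, 7.75-fold). Its level was 11.68, 8.44 and 11.65 in WT and 14.40, 12.28 and 13.95 in *p85α−/−* MCps, without overlap. *Lcp2*, which codes for the adaptor SLP-76, was also called higher, with log2 ratios of 3.11, 2.67 and 0.53 (2.10 ± 1.38, SD, n = 3). It was no longer past the criteria without replicate 1 (1.60) or without replicate 2 (1.82). No other gene of this list was called. *Lat2*, an adaptor, had a mean of 1.86 ± 2.58, and *Fgr*, a SRC family kinase, had −1.19 ± 0.95. *Syk*, which binds the ITAM of FcRγ, had log2 ratios of −2.58, 0.97 and −3.58, a mean of −1.73 ± 2.39. *Lyn*, which phosphorylates that motif, had 0.92, 0.15 and 0.35. Single arrays moved *Syk* (−3.08 and called without replicate 2, −0.81 without replicate 3), *Lat2* (3.30 and called without replicate 2, 0.80 without replicate 1) and *Fgr* (−1.71 and called without replicate 3, −0.77 without replicate 2). *Lat2* was also called with its probes averaged (1.55).

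Of the list of 10 inhibitory receptors and phosphatases, 9 had a probe, 3 had a mean log2 ratio above 0 and 0 were called by limma (2.78% of all probes were called higher and 1.66% lower). The median was −0.13, turning to 0.54 with median centring, where 8 genes were above 0, to 0.097 without replicate 3 and to 0.23 with a gene's probes averaged. Without replicate 1 it was −0.23, and without replicate 2 it was −0.26. *Inpp5d*, which codes for SHIP1, the phosphatase that FcγRIIB recruits, had log2 ratios of 1.63, −1.88 and 0.94 (0.23 ± 1.86, SD, n = 3). The highest means were those of the inhibitory receptor genes *Lilrb4* (1.45 ± 1.78) and *Lilrb3* (1.26 ± 1.72), and the lowest those of the adaptor gene *Dok1* (−0.46 ± 0.80), the lipid phosphatase gene *Inppl1* (−0.39 ± 1.08) and the receptor gene *Pilra* (−0.28 ± 0.26). Without replicate 2, *Inpp5d* (1.28) and *Dok1* (−0.92) were past both criteria. *Lilrb4* was called without replicate 1 (2.48) and with median centring (2.09), and *Lilrb3* was at 0.26 without replicate 1. The signs for *Dok1* and *Inppl1* turned with median centring (0.50 and 0.54). *Dok1* was at −0.23 without replicate 1. *Pilra* was at −1.21 with the software's processed signals and at −1.04 with its log ratio.

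Of the list of 13 other Fc receptors and adaptors, 12 had a probe, 5 had a mean log2 ratio above 0 (44.8% of all probes) and 0 were called by limma (2.78% of all probes higher, 1.66% lower). The median was −0.13, which turned to 0.38 with median centring, to 0.036 without replicate 1 and to 0.0072 without replicate 2. *Tyrobp*, which codes for DAP12, like FcRγ an ITAM chain that pairs with receptors, had log2 ratios of −0.25, 2.84 and 4.56, so that it did not share the direction of *Fcer1g* on replicate 1. Its mean of 2.39 ± 2.43 (SD, n = 3) was not past the criteria, and was so without replicate 1 (3.70), while it was 1.299 without replicate 3. *Hcst*, the adaptor DAP10, had 0.61 ± 0.99, with 0.11 without replicate 1, 1.09 without replicate 2 and a call with median centring (1.58). *Fcgrt*, the neonatal Fc receptor, had 0.37 ± 0.25 with every array above 0, with 0.23 without replicate 3 and 0.81 with median centring. *Pigr*, which carries polymeric immunoglobulin across epithelia, had −0.41 ± 0.81, *Cd247*, an ITAM chain of the T cell receptor, −0.23 ± 0.96, and *Fcrl1*, a B cell gene of the Fc receptor-like family, −0.21 ± 0.64. The sign for *Cd247* turned with median centring (0.21).

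**Figure D4:**
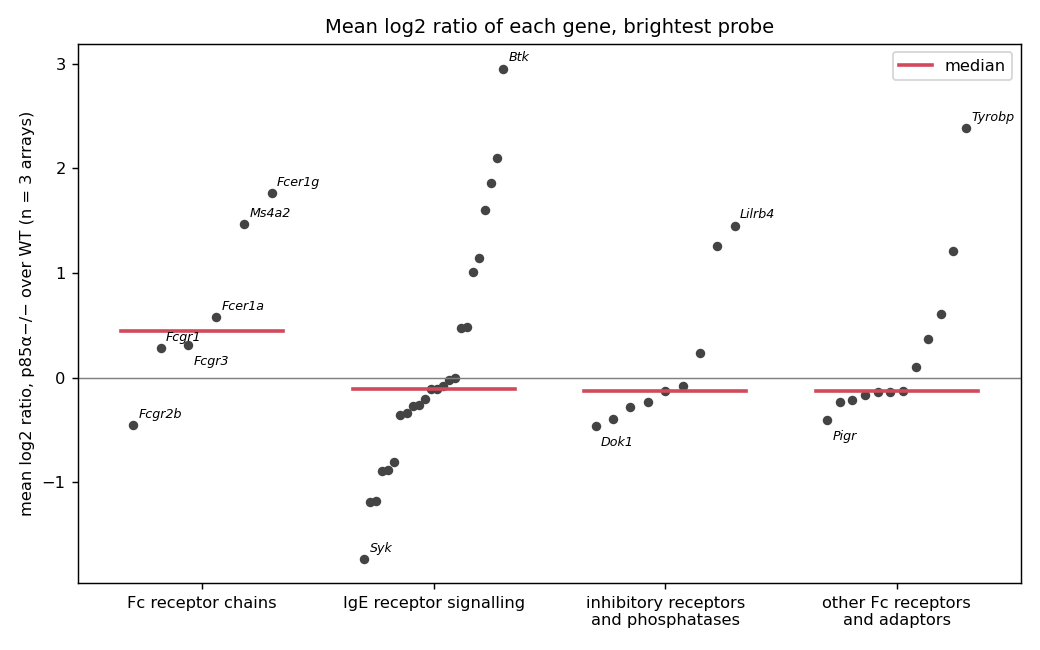
Mean log2 ratio of *p85α−/−* over WT (y axis, n = 3 arrays) at the brightest probe of each gene, for the 6 Fc receptor chains and the 3 lists (x axis). Each point is a gene, ordered by value within its list, and the red line is the list's median. The chains' median is 0.44 and those of the lists are −0.11, −0.13 and −0.13, against 1.22 and 0.38, 0.54 and 0.38 with median centring, while single genes such as *Btk*, *Tyrobp*, *Lilrb4* and *Syk* lie far from the medians.

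Markers of other cells that carry these receptors were measured beside them. Fewer cells of a type and less RNA per cell cannot be told apart in these samples. The counts below stand beside 44.8% of all probes with a mean ratio above 0, 2.78% called higher and 1.66% called lower. Of 9 neutrophil markers, 5 had a mean ratio above 0 and 2, *S100a8* and *S100a9*, were called higher, with a summed level of 10200, 19200 and 9230 in WT replicates 1, 2 and 3 and of 69900, 3270 and 228000 in the *p85α−/−* replicates. Most of the highest sum came from *Mpo*, which was not called. On replicate 2 this sum was lower in *p85α−/−* MCps, with log2 ratios of −3.37 for *Mpo* and −1.77 for *Ela2*, while *S100a8*, *S100a9* and *Camp* were at 0.39, 0.49 and 0.23 there and above 0 on all 3 arrays, as was *Fcer1g*. Of 9 macrophage and monocyte markers, 6 had a mean ratio above 0 and 0 were called. Their sum was 2740 to 6980 in WT and 2560 to 4020 in *p85α−/−* MCps, and *Mrc1* was well above background in 0 of 3 WT cultures. Of 5 NK cell markers, 0 had a mean ratio above 0 and 2 were called lower, *Klrb1c* and *Eomes*. Their sum was 3140 to 6550 in WT and 1270 to 2560 in *p85α−/−* MCps. Of 4 basophil markers, 2 had a mean ratio above 0 and 0 were called, with sums of 12400 to 42100 in WT and 12400 to 39200 in *p85α−/−* MCps, most of it from *Il3ra* in the highest WT culture. *Mcpt8*, a basophil protease gene, was above 0 on all 3 arrays (0.59, 0.58 and 1.51) and not called. Of 4 eosinophil markers, 4 had a mean ratio above 0 (median 0.67) and 0 were called, with *Ccr3* at 4.40 and *Epx* at 2.44 on replicate 1. Of 3 megakaryocyte and platelet markers, 3 had a mean ratio above 0 (median 1.01), and of 5 B cell, 4 dendritic cell and 4 T cell markers 2, 1 and 1 had, with 0 of these called. The mast cell marker sum was higher in every *p85α−/−* culture than in any WT culture, as was *Fcer1g*. The same held for the sums of the IgE signaling list (53400 to 64100 in WT, 75700 to 132000 in *p85α−/−*) and of the inhibitory list (15700 to 19400 and 22400 to 32900). Such sums add levels of different probes and are led by the brightest, such as *Lat2* in *p85α−/−* replicate 1 (log2 intensity 16.31), so they do not describe a list as a whole. The part of the mast cell, neutrophil and other markers in the *Fcer1g* result was not tested.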

How the data were processed

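MCps of 3 WT and 3 *p85α−/−* mice were measured on 3 arrays, each with 2 dyes. The arrays shared 1 slide and 1 scan day, and no batch could be tested. The deposited intensity values are mean spot signals and median local backgrounds of Agilent Feature Extraction 9.5.1.1, without normalization, beside processed signals after the software's own background and dye correction. The deposited log10 ratios of red over green were computed by that software, and the authors' table holds 1 such value per probe and array, which for replicate 1 stands on its own probe and for replicates 2 and 3 mostly does not. Per the paper's methods, values were quantile normalized and genes taken at 1.5-fold and p under 0.05.

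In R 4.3.3 with limma 3.58.1, signals were background corrected (normexp, offset 50), the 6 channels quantile normalized, and control and outlier spots left out. Spots of a probe were then averaged. The log2 ratio per array was fitted with an intercept only (eBayes, Benjamini-Hochberg over 41157 probes), which keeps the pairing of cultures on an array. That pairing is given by the hybridization. P-values and intervals rest on the spread between 3 pairs of cultures, moderated by the spread of all tested probes. The number of pairs limits the precision. The fit was tested on simulated ratios. Motifs were searched as exact letters. A gene of a list was named if it was among the 3 highest or 3 lowest mean ratios of its list, well above background in 1 channel of every array, or called, and *Lyn* was added after its values were seen. A result that this rule takes is not reported here. The 5 genes with the most similar profile were named by distance alone. Array names were matched to current symbols through RefSeq accessions, and *Milr1* and *Fcrlb* matched no probe. The members and lists were chosen with earlier results of these data known.

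Other settings tried were median centring, loess followed by Aquantile, signals without background subtraction, processed signals, the software's log ratio, outlier spots included, dim probes removed, limma without pairing, each replicate left out, a gene's mean over its probes, and the methods' t-test in both forms.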

Additional observations from a re-analysis of the deposited data

How the results depend on the processing

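The sign of the *Fcer1g* ratio was the same under all 14 alternatives (1.29 to 2.97), as was that of *Ms4a2* (0.52 to 2.98), whose WT spot was well above background in 1 of 3 cultures, so that its ratio rests on values near background. *Fcer1g* missed the threshold with the methods' t-test, unpaired and paired (1.76 in both), which also gave 0 called chains. These tests called 1125 (unpaired) and 819 (paired) of all probes, and 0 and 1 genes of the IgE signaling list. *Ms4a2* passed with processed signals (2.98) and with the software's log ratio (2.84), where 2 chains were called. With median centring the median of all probes went from −0.05 to 0.09 and the share of higher calls from 62.6% to 91.1% of 2692 calls. With it the chains' median was 1.22, the IgE signaling list had 17 genes above 0, 5 called and a median of 0.38, the inhibitory list 8, 1 and 0.54, and the other Fc list 10, 1 and 0.38. With a gene's probes averaged, the chains' median was 0.70, 6 genes of the inhibitory list were above 0 and *Pilra* was at 0.079.

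With 1 replicate left out, the ratio ran from −0.80 (without replicate 2) to 2.36 for *Fcer1a*, from 0.52 to 2.07 for *Ms4a2*, from −0.22 (without replicate 3) to 0.61 for *Fcgr1*, from −0.83 to 0.13 (without replicate 2) for *Fcgr2b* and from −0.070 (without replicate 1) to 0.67 for *Fcgr3*. Called chains numbered 1 to 2, chains above 0 4 to 5, their median was 0.42 to 0.87, and calls over all probes ran from 1555 to 3165. In the lists, 7 to 13 IgE signaling genes were above 0 and 2 to 5 called, 3 to 5 inhibitory genes were above 0 and 0 to 2 called, and 0 to 1 other Fc genes were called. Ratios that changed sign in this way ran from −0.47 (without replicate 1) over −0.13 (without replicate 3) to 1.28 for *Inpp5d*, from −0.80 to 0.0077 (without replicate 1) for *Pigr*, from −0.79 to 0.065 (without replicate 1, 0.020 without replicate 2) for *Cd247*, from −0.97 to 0.097 (without replicate 3) for *Inppl1*, from −0.57 to 0.059 (without replicate 3) for *Fcrl1*, from −0.0025 (without replicate 1) to 0.27 for the second *Fcgr2b* probe and from −0.24 to 0.16 (without replicate 2, 0.0074 without replicate 1) for the other *Fcgr1* probe. That probe, at −0.02, also turned under loess (0.010), median centring (0.31), processed signals (0.015) and the software's log ratio (0.046). Median centring also turned *Inppl1* (0.54), *Dok1* (0.50) and *Cd247* (0.21). The other *Fcer1g* probe lost its call under 7 of 13 alternatives, *Lcp2* under 4 of 14 and *Btk* under 1 of 14. The causes were not tested.

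Without the pairing by array, that is with no replicate block, no call on the brightest probes of the chains changed (*Fcer1g* unadjusted p = 0.0243, limma) and 1809 probes were called. No probe reached an adjusted p under 0.05 under the 13 alternatives that test all probes. The authors' table was not run, because on replicates 2 and 3 only 190 and 226 of 40929 ratios stood on their own probe (tolerance 1.5e-05 on the log10 scale).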
